A study of Mus musculus with 6 samples.

Results

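The proteasome genes of Th9 cells were examined here, 42 of the 41388 genes in the table, namely those of the 20S core, the 19S cap, the activators that dock on the core and a maturation factor. They were taken by symbol and divided into 5 inducible subunits, Psmb8, Psmb9, Psmb10, Psme1 and Psme2, and 37 that cells carry without interferon and that are called constitutive below. RNA-Seq was available for 3 WT and 3 Irf1-/- cultures of CD4+ T cells from mice on the C57BL/6 background, 8 to 12 weeks old. The Irf1-/- mice lack functional IRF1, an interferon-induced transcription factor, in every cell of the animal, and a deletion restricted to T cells was not part of the comparison. The cells, called naive in the RNA-Seq methods, were isolated from spleen and lymph nodes by negative magnetic selection, stimulated through CD3 and CD28, and kept for 2 days with IL-2, IL-4 and TGF-β, the Th9 condition, which drives IL-9 production. All 6 cultures contained antibody to mouse IFN-γ and received recombinant rat IFN-γ at 5 ng per ml, so no culture without added IFN-γ entered the comparison. The WT mice were purchased and the Irf1-/- mice were bred in house, so origin and genotype cannot be told apart. The values are normalized counts, the reads on a gene divided by the size factor of the library, and with the same step in every gene they gave back whole reads.

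The proteasome is the protease that takes apart ubiquitin-tagged proteins in the cytosol and nucleus, and it supplies most peptides that MHC class I molecules present to CD8 T cells. Its barrel-shaped 20S core consists of outer α rings and inner β rings, and Psmb5, Psmb6 and Psmb7 encode its cutting subunits, which belong to the β rings. When cells see IFN-γ, newly built cores take up Psmb8 (LMP7), Psmb9 (LMP2) and Psmb10 (MECL-1) in their places, which gives the immunoproteasome. Psme1 and Psme2 encode the α and β chains of PA28, a ring that opens the core without ubiquitin. The 19S cap, in contrast, recognises ubiquitin chains, unfolds the substrate with a ring of ATPases and feeds it into the core. T cells and other leukocytes carry much immunoproteasome even without infection.

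Reads on genes ranged from 5639788 to 13348230 per library, and replicate 3 of both genotypes was about as deep as replicates 1 and 2 together. Irf1 itself was found at 2968, 2907 and 2659.8 in WT and 1780.2, 1729 and 1476 in Irf1-/- cells, so its reads fell to 58.4% of the WT mean in the cells labelled Irf1-/-. The sum of 6 CD4 T cell markers was 14395 to 14944 in WT and 14198 to 14542 in Irf1-/- libraries, and none was at 0. Cd3e was called lower in Irf1-/- cells by limma (-0.30 on the log2 scale, adjusted p = 0.00535, and in the libraries with Xist described below -0.26, adjusted p = 0.136), and Cd3d, Cd3g, Cd4, Cd5 and Lck were not called, with values from -0.11 for Cd5 to 0.14 for Cd3d. The sum of 3 markers of Th9 cells, Il9, Irf4 and Batf, was 10819.9 to 13575 in WT and 15563 to 17146 in Irf1-/- libraries, and its part in the results was not tested. Il9 was called higher in Irf1-/- cells by limma (1.75 on the log2 scale, adjusted p = 9.25e-06), as was Batf (0.38, adjusted p = 0.00559, and adjusted p = 0.115 in the libraries with Xist), and Irf4 was not called (0.23). Of the CD8 T cell genes Cd8a reached at most 4.99 and Cd8b1 38.1. Of 4 NK cell genes, Ncr1 and Klrb1c were listed at 0 throughout, and the sum of all 4 stayed at 8.36 or less. The sum of 5 B cell markers ranged from 612 to 827 in WT and from 449 to 536 in Irf1-/- libraries. Most of it came from Ighm, the IgM heavy chain, which was called lower in Irf1-/- cells by limma (-0.54 on the log2 scale, adjusted p = 0.00870, not called without a trend, and -0.81 in the libraries with Xist), while Ms4a1 reached at most 4.16 and Cd79b 26.3. No B cell marker was at 0 in all libraries, and the part of such cells in the results was not tested. The sum of 8 myeloid markers ranged from 54.9 to 182 in WT and from 42.8 to 1042 in Irf1-/- libraries, with all 8 of them highest in Irf1-/- replicate 2, and none was at 0 in all libraries. Ddx3y, a gene of the Y chromosome, was found in WT replicates 1 and 2 at 849 and 939 and at 4.16 or less in the other libraries, which instead held Xist at 16974 or more. WT replicates 1 and 2 thus held transcripts of male cells and the other 4 libraries those of female cells, although the methods describe the mice as sex-matched. Sex and genotype are therefore partly confounded in the main comparison. Without WT replicate 3, and in the libraries of replicates 1 and 2, they cannot be told apart, since every WT library left held male transcripts. In the libraries with Xist and the pair of replicate 3, all libraries held female transcripts. The 4 libraries with Xist were therefore also fitted alone. That fit sets WT replicate 3 alone against 3 Irf1-/- libraries and assumes that this single WT library varies as the Irf1-/- libraries do, so calls lost or kept there rest on a WT arm without replicates. Its value is given beside the calls that it ends. In bulk RNA, fewer cells of a type and less RNA per cell cannot be told apart.

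The windows around the RefSeq start sites of the 5 inducible genes are shown first, because these members moved together and are all known targets of IFN-γ. Each runs from 250 bases before to 50 bases after the start in GRCm38.p6, 5′ to 3′ on the strand of the gene. Capitals mark any match to 3 motifs searched on both strands: GAAANNGAAA, the repeat that IRF proteins bind in interferon-stimulated response elements, TTCNNNGAA, the palindrome of gamma-activated sites (GAS), and TGACNNNGC, the core of the antioxidant response element through which NRF1 acts on constitutive subunit genes. The motifs overlapped in no window of a member. A gene can have further start sites, which these windows do not cover. A further RefSeq window of Psme2, chr14:55590972-55591271 on the - strand, was searched as well and is not printed. The window of Psmb8 is chr17:34197945-34198244 on the + strand, that of Psmb9 chr17:34187281-34187580 on the - strand, that of Psmb10 chr8:105938343-105938642 on the - strand, that of Psme1 chr14:55578244-55578543 on the + strand and that of Psme2 chr14:55591052-55591351 on the - strand.
Psmb8: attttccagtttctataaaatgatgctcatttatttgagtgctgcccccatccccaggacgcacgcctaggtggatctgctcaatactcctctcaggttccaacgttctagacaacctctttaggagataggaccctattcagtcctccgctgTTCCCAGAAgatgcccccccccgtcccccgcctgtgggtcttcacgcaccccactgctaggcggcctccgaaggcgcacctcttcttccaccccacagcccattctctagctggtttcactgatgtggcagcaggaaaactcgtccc
Psmb9: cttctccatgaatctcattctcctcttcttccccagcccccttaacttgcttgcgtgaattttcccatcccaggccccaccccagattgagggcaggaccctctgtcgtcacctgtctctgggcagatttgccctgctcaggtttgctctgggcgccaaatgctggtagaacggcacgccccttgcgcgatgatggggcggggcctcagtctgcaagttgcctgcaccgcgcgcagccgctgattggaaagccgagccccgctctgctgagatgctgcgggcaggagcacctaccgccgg
Psmb10: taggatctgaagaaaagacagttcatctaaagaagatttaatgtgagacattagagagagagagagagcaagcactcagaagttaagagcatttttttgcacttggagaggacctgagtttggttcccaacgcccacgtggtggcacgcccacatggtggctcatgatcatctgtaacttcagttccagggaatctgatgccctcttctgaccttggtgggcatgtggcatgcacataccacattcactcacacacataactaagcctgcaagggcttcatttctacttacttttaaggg
Psme1: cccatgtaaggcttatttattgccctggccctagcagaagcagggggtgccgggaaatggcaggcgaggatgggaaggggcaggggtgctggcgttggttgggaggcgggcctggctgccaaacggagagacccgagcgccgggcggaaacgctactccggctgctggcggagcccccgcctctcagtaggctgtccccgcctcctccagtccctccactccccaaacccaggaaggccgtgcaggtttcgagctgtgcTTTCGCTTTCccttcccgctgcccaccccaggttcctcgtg
Psme2: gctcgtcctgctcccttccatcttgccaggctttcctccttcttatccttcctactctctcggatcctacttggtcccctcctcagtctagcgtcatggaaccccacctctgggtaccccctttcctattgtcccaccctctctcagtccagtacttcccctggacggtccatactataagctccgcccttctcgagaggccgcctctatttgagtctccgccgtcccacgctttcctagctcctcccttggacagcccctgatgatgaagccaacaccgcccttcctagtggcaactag

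Among these windows, Psme1 held the reverse complement of the IRF-type repeat, TTTCGCTTTC, from base 10 to base 19 after its start, and Psmb8 held TTCCCAGAA of the GAS type at bases -97 to -89. Psmb9, Psmb10 and Psme2 held none of the 3 motifs, which says only that these letters do not stand in these windows. Of 36 members with a window, 4 held the IRF-type repeat (Psmb3, Psmd4, Psmd9 and Psme1), against 3.44% of 32851 mouse promoter windows. Members were counted by gene, with a match in any window of the gene, whereas the shares are by window. The GAS-type palindrome was found for 2 members, Psmb8 and Psmd2, against 8.3% of all windows. The antioxidant-type core was found in 6 members, all of them constitutive (Psmb5, Psmb6, Psmc6, Psmd9, Psmd12 and Psme4), against 12.4% of all windows. The window of Psmb5, which encodes the constitutive partner of Psmb8, is shown for comparison at chr14:54617946-54618245 on the - strand.
Psmb5: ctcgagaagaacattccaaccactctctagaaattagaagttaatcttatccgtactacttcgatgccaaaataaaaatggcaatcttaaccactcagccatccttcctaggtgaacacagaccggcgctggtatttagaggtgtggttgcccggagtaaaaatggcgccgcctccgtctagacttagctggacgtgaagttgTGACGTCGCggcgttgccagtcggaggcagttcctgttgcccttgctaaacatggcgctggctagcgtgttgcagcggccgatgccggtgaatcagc

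The first question was whether the inducible and the constitutive proteasome genes differed between WT and Irf1-/- Th9 cells under IFN-γ. All 42 members passed the minimum mean of 10 normalized counts and were tested with limma together with all other genes, 11379 in all, with Benjamini-Hochberg adjustment over the whole table. All 5 inducible subunits were lower in Irf1-/- cells at an adjusted p below 0.05, the criterion for a call throughout, with a median log2 fold change of -1.03 from WT to Irf1-/- cells. Among the 37 constitutive members 4 were called lower and none higher, and 33 were not called, with a median of -0.069. Over all genes tested, 12.4% were called lower and 11.4% higher, together 23.7%, and the median was -0.0037. The 4 constitutive members called lower are 10.8% of the 37, which is near that background, whereas the inducible genes were called without exception. The count of 4 fell to 2 without WT replicate 2, and over the alternatives it ran from 1 to 7 lower and from 0 to 3 higher, with a median of -0.0086 under quantile normalization. At an unadjusted p below 0.05, 1 of the constitutive members had a value above 0 and 7 a value below 0, against 17.8% and 18.9% of all genes, and edgeR and DESeq2 also called none of them higher. The genotypes did not overlap in 5 of 5 inducible and 11 of 37 constitutive members, against 40.5% of all genes.

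**Figure D1:**
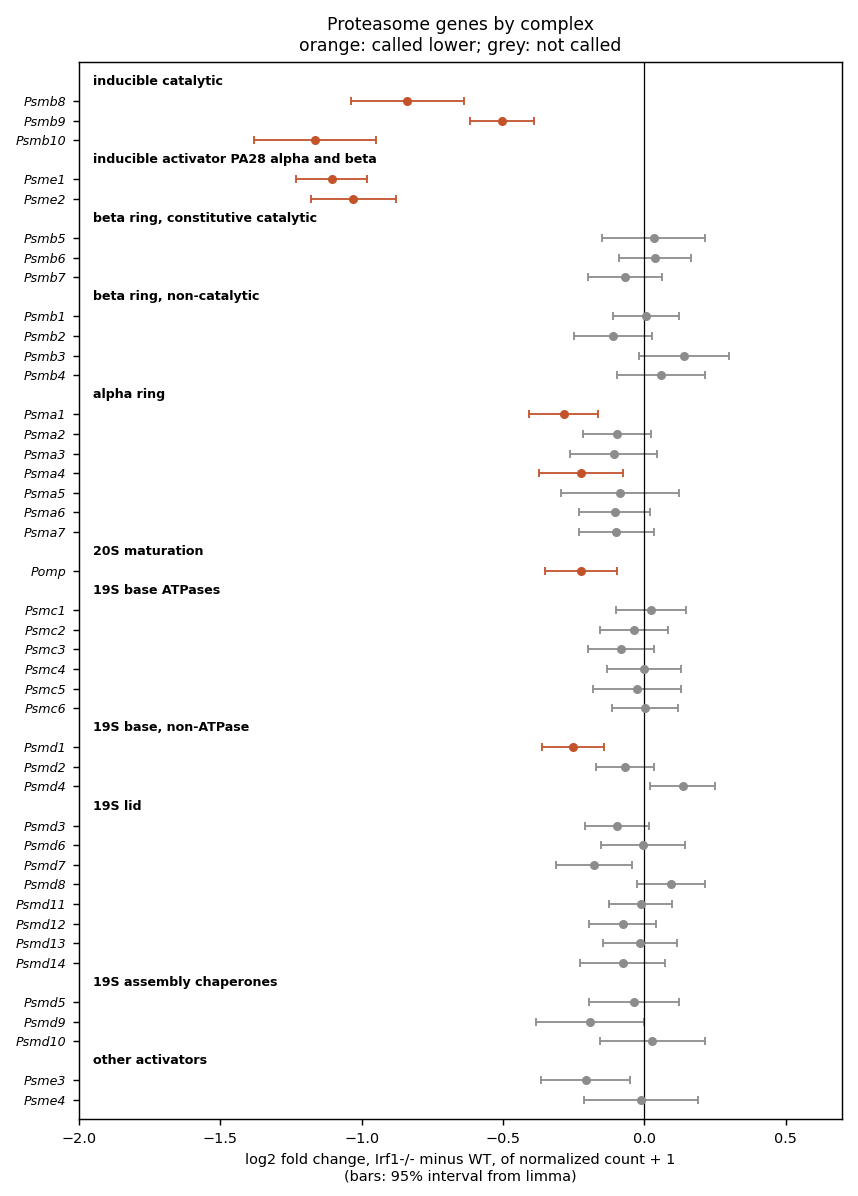
Log2 fold change between the genotypes, Irf1-/- minus WT (x axis, on the scale of the log2 of the normalized count plus 1) for the 42 proteasome genes (y axis), grouped by complex, with 95% intervals from limma (n = 3 per genotype). The 5 inducible genes lie between -1.16 and -0.50, and all 37 others lie between -0.29 and 0.14.

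Psmb8 encodes LMP7, the inducible subunit with chymotrypsin-like activity. Its normalized counts were 2023, 2196 and 2533 in WT against 1132, 1266 and 1373 in Irf1-/- cells (replicates 1, 2 and 3). The highest Irf1-/- culture thus stayed well below the lowest WT culture, and the means were 2251 ± 259 in WT and 1257 ± 121 in Irf1-/- cells (SD, n = 3). The difference was called (log2 fold change -0.84, standard error 0.0903, adjusted p = 0.000148 from limma), with a 95% interval of -1.04 to -0.64. The gene lies in the MHC on chromosome 17 of GRCm38, spanning 34197721 to 34201454 (+ strand).

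Psmb9, which encodes LMP2 and lies next to Tap1 on the same chromosome from 34181987 to 34187764 on the - strand, showed the smallest difference of the 5. The counts were 1671, 1723 and 1766 in WT against 1212, 1213 and 1210.4 in Irf1-/- cells (replicates 1, 2 and 3). All Irf1-/- cultures lay close together and below the WT cultures, with means of 1719.9 ± 47.6 in WT and 1212 ± 1.54 in Irf1-/- cells (SD, n = 3). The difference was called (log2 fold change -0.50, standard error 0.0512, adjusted p = 0.000100 from limma). Psmb9 and Tap1 run in opposite directions with overlapping exons, and 12.5% of the 50-base stretches of the principal Psmb9 transcript also occur in Tap1. The libraries do not mark strand, so reads from that overlap cannot be assigned to either gene.

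Psmb10, which encodes MECL-1 and lies on chromosome 8 from 105935735 to 105938444 on the - strand, was the least abundant inducible subunit and had the largest fold change of the 5. Its counts were 567, 579 and 623 in WT against 258, 301 and 233 in Irf1-/- cells (replicates 1, 2 and 3). The genotypes were far apart in every culture, with means of 589.8 ± 29.7 in WT and 264 ± 34.5 in Irf1-/- cells (SD, n = 3), so Irf1-/- cells held 44.7% of the WT level. The difference was called (log2 fold change -1.16, standard error 0.0974, adjusted p = 3.04e-05 from limma), and no 50-base stretch of the principal transcript occurred in another annotated gene.

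Both PA28 chains were lower as well. Psme1, the α chain, had counts of 2622, 2804 and 2816 in WT against 1214, 1326 and 1288 in Irf1-/- cells (replicates 1, 2 and 3). Its means were 2747 ± 109 in WT and 1276 ± 56.8 in Irf1-/- cells (SD, n = 3), and the difference was called (log2 fold change -1.11, standard error 0.0566, adjusted p = 1.02e-06 from limma). Psme2, the β chain, had counts of 953, 1054 and 937 in WT against 475, 498 and 467 in Irf1-/- cells (replicates 1, 2 and 3). Its means were 982 ± 63.6 in WT and 480.1 ± 15.9 in Irf1-/- cells (SD, n = 3), and it was called too (log2 fold change -1.03, standard error 0.0678, adjusted p = 5.46e-06 from limma). In both genes every Irf1-/- culture stood below every WT culture. The genes lie on chromosome 14, Psme1 from 55578123 to 55581529 on the + strand and Psme2 from 55587441 to 55591113 on the - strand. Psme2 shares 59.3% of its 50-base stretches with Psme2b, which held 11.2 to 19.7 normalized counts in WT and 7.16 to 8.32 in Irf1-/- cells, so reads from the shared part fit either gene. Reads that match several genes were treated in a way that is not given in the sources used here.

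**Figure D2:**
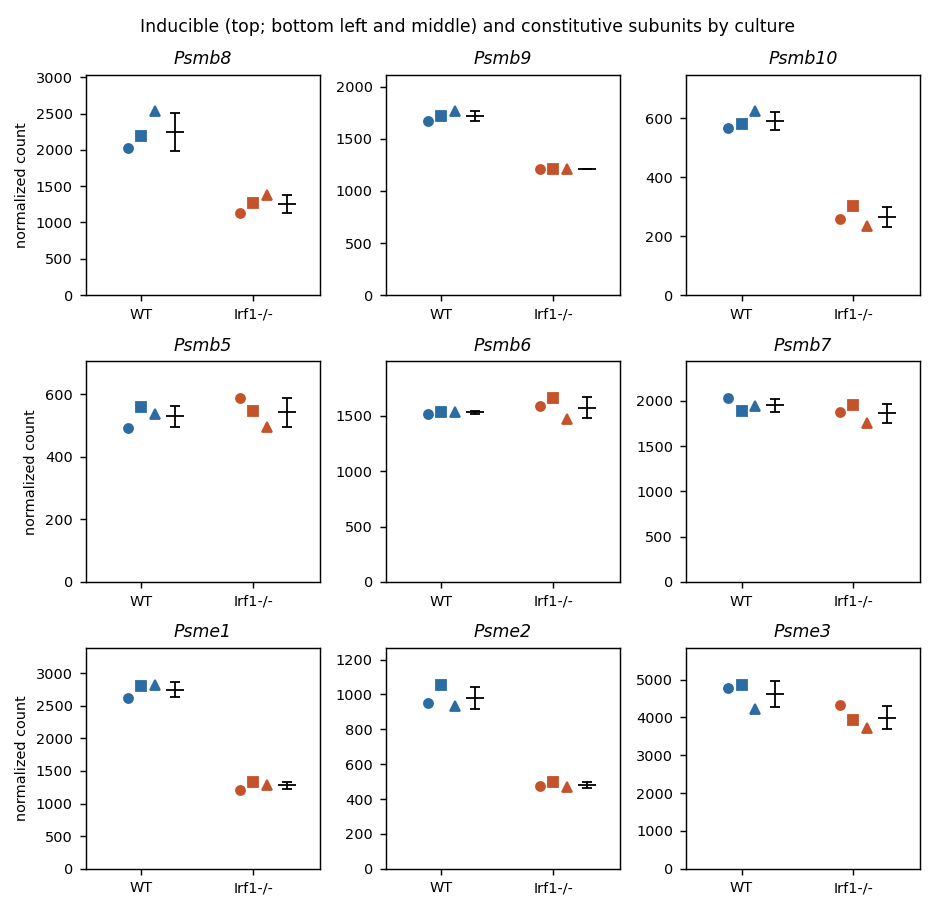
Normalized counts (y axis, from 0) in the 3 WT and 3 Irf1-/- cultures for the inducible core subunits (top row), their constitutive partners (middle row) and the PA28 family (bottom row). Circles, squares and triangles are replicates 1, 2 and 3, and the dash with its bar is the mean ± SD. WT and Irf1-/- points are separate for Psmb8, Psmb9, Psmb10, Psme1 and Psme2, and they overlap for Psmb5, Psmb6, Psmb7 and Psme3.

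The 5 calls held in each of the 19 alternatives that gave a test, with log2 fold changes from -1.42 to -1.04 for Psmb10, -1.14 to -1.05 for Psme1, -1.06 to -0.96 for Psme2, -1.01 to -0.75 for Psmb8 and -0.54 to -0.45 for Psmb9 over these and the pair of replicate 3. Without Irf1-/- replicate 2, the library with the most myeloid transcripts, they were -0.85 for Psmb8, -0.51 for Psmb9, -1.26 for Psmb10, -1.13 for Psme1 and -1.06 for Psme2. In the 4 libraries that held Xist, WT replicate 3 alone against the 3 Irf1-/- libraries, they were -1.01, -0.54, -1.25, -1.14 and -0.96 in the same order. Neither restriction made any of these differences smaller by more than 0.0653 on the log2 scale.

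The size of the decrease was then compared among the inducible genes. Within each culture the log2 ratio of 2 inducible genes was taken for all 10 pairs, a comparison chosen after the values were seen. The ratio of Psmb9 to Psmb10 was higher in Irf1-/- than in WT cultures by 0.66, that of Psmb9 to Psme1 by 0.60 and that of Psmb9 to Psme2 by 0.52, and the ratio of Psmb8 to Psmb9 was lower, at -0.33. The genotypes did not overlap in these 4 ratios, nor in those of Psmb8 to Psmb10 and to Psme1, and each had an exact two-sided permutation p = 0.1, the smallest that 3 against 3 samples allow (0.167 after adjustment over the 10 pairs). For Psmb10, Psme1 and Psme2 the genotypes overlapped in all 3 ratios among them, and for Psmb8 to Psme2 as well (exact permutation p from 0.3 to 0.8). In the order of the 5 differences, Psmb10, Psme1 and Psme2 were thus not separated beyond their spread, and Psmb9 had the smallest difference in every ratio that held it.

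None of the 3 constitutive cutting subunits was called. Psmb5, the chymotrypsin-like subunit that Psmb8 replaces, was found at 493, 560.2 and 535 in WT and 587, 545 and 495 in Irf1-/- cells (log2 fold change 0.033, standard error 0.0821, adjusted p = 0.809 from limma). Psmb6, the caspase-like subunit that Psmb9 replaces, was found at 1519, 1534 and 1539 in WT and 1587, 1660.0 and 1474 in Irf1-/- cells (log2 fold change 0.038, standard error 0.0577, adjusted p = 0.677 from limma). Psmb7, the trypsin-like subunit that Psmb10 replaces, was found at 2030.5, 1885 and 1944 in WT and 1882, 1957 and 1751 in Irf1-/- cells (log2 fold change -0.069, standard error 0.0586, adjusted p = 0.435 from limma). The genotypes overlapped in all 3 genes. The 95% intervals of the log2 difference were -0.15 to 0.21 for Psmb5, -0.089 to 0.17 for Psmb6 and -0.20 to 0.061 for Psmb7. Their levels carry a limit, since 57.1% of the 50-base stretches of Psmb5 also occur in other annotated genes, mostly the pseudogene Gm3375, and 28.1% of those of Psmb7 occur in Nek6, which overlaps it on the opposite strand.

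To compare each inducible subunit with the subunit it replaces, the ratio of their normalized counts was formed within each culture. Psmb8 to Psmb5 was 4.10, 3.92 and 4.72 in the WT and 1.93, 2.32 and 2.77 in the Irf1-/- cultures. Psmb9 to Psmb6 was 1.10, 1.123 and 1.147 in WT and 0.764, 0.731 and 0.821 in Irf1-/- cells. Psmb10 to Psmb7 was 0.279, 0.308 and 0.321 in WT and 0.138, 0.154 and 0.133 in Irf1-/- cells. In all 3 pairs every Irf1-/- culture lay below every WT culture, and Psmb9 changed from slightly above to below its partner in counts. On the log2 scale the mean ratio of Psmb8 to Psmb5 was 2.08 ± 0.141 in WT and 1.21 ± 0.263 in Irf1-/- cells (SD, n = 3), a difference of -0.87. The differences were -0.54 for Psmb9 to Psmb6 and -1.10 for Psmb10 to Psmb7. Each had an exact two-sided permutation p = 0.1, also after adjustment over the 3 ratios, which is the smallest p for 3 against 3, so the design could not take any of them past 0.05.

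**Figure D3:**
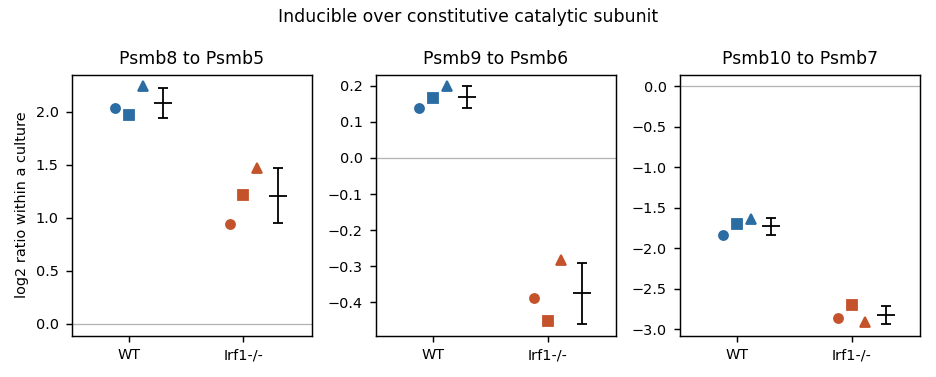
Log2 ratio of the normalized counts of an inducible cutting subunit and the constitutive subunit it replaces (y axis), within each of the 3 WT and 3 Irf1-/- cultures. Circles, squares and triangles are replicates 1, 2 and 3, the dash with its bar is the mean ± SD, and the grey line marks equal counts. In all 3 panels the Irf1-/- points lie below the WT points.

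A level per length compares genes more fairly than counts, and it was taken as normalized counts per kilobase of the principal transcript. On this scale Psmb8 stood at 1383 in WT and 772 in Irf1-/- cells, Psmb9 at 1272 and 896, and Psmb10 at 449.9 and 201. The constitutive partners stood at 589 in WT cells for Psmb5, 1918 for Psmb6 and 1684 for Psmb7. The ratio per kilobase was 2.34 in WT and 1.29 in Irf1-/- cells for Psmb8 to Psmb5, 0.663 and 0.456 for Psmb9 to Psmb6, and 0.268 and 0.125 for Psmb10 to Psmb7. If only the length not shared with other genes is counted, the ratio for Psmb8 to Psmb5 becomes 1.07 and 0.589, so the order of the genes in Irf1-/- cells depends on how shared reads were treated and the WT mean ratio comes close to 1, while the fold difference between genotypes is the same on either scale by construction. For the other pairs the unshared ratios were 0.738 and 0.507, and 0.193 and 0.0902, with the constitutive gene above the inducible one in both genotypes. Over the 42 members the WT level per kilobase ranged from 122.9 for Psmd5 to 2543 for Psma7, and Psme1 came next to the top with 2470.4.

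In the other β ring subunits, which build the ring but do not cut, none of Psmb1, Psmb2, Psmb3 and Psmb4 was called, with log2 fold changes from -0.11 for Psmb2 to 0.14 for Psmb3. The 7 genes of the α ring, the gate of the core, all had values below 0, against 50.6% of all genes tested, with a median of -0.11, and 2 of them were called lower, against 12.4%. Psma1 was found at 2189, 2075 and 2313 in WT and 1814, 1777 and 1800.3 in Irf1-/- cells, with no overlap between the genotypes. Its means were 2192 ± 119 in WT and 1797 ± 18.8 in Irf1-/- cells (SD, n = 3) (log2 fold change -0.29, standard error 0.0550, adjusted p = 0.00452 from limma), a decrease to 82.0% of WT. Psma1 was called in all 19 alternatives. Psma4 was found at 1409, 1346 and 1404 in WT and 1171, 1297 and 1099 in Irf1-/- cells, again without overlap (log2 fold change -0.22, standard error 0.0670, adjusted p = 0.0341 from limma). Of the 50-base stretches of Psma4, 31.5% also occur in other annotated genes. Its call depended on the samples, since it was lost without WT replicate 1 (adjusted p = 0.113 from limma), without WT replicate 2 (0.0726), without WT replicate 3 (0.0522), without Irf1-/- replicate 1 (0.105) and without Irf1-/- replicate 3 (0.0771), and it held without Irf1-/- replicate 2 (0.0176). It was lost as well with quantile normalization, without a trend, with the Ddx3y covariate (0.105) and in the libraries with Xist (log2 fold change -0.24, adjusted p = 0.205 from limma), in all in 9 of 19 alternatives. The other 5 α genes, Psma2, Psma3, Psma5, Psma6 and Psma7, had log2 fold changes from -0.11 for Psma3 to -0.085 for Psma5 and were not called.

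Pomp encodes the chaperone that brings unfinished cores together and is consumed as the first substrate of the new core. Its counts were 1609.9, 1768 and 1718 in WT and 1422, 1517 and 1420.0 in Irf1-/- cells, and every Irf1-/- culture lay below every WT culture. The means were 1699 ± 81.0 in WT and 1453 ± 55.5 in Irf1-/- cells (SD, n = 3), and the difference was called (log2 fold change -0.22, standard error 0.0578, adjusted p = 0.0177 from limma). The call was lost without WT replicate 2 (adjusted p = 0.0879 from limma) and without Irf1-/- replicate 1 (0.0709), at log2 fold changes of -0.20 and -0.21. It was lost too with quantile normalization (0.0593), without a trend (0.0732), with the Ddx3y covariate (0.0526) and in the libraries with Xist (log2 fold change -0.24, adjusted p = 0.132 from limma).

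In the 19S cap a single gene, Psmd1, was called. None of the 6 ATPases Psmc1 to Psmc6, which unfold the substrate, was called, and their log2 fold changes lay between -0.083 and 0.022 with 95% intervals no wider than -0.20 to 0.15. Psmd1, the largest subunit of the base and a scaffold for ubiquitin receptors, was lower in Irf1-/- cells. Its counts were 2527, 2579.9 and 2561 in WT and 2233, 2109 and 2095 in Irf1-/- cells, without overlap, and the means were 2556 ± 26.8 in WT and 2146 ± 75.7 in Irf1-/- cells (SD, n = 3) (log2 fold change -0.25, standard error 0.04998, adjusted p = 0.00511 from limma). The call of Psmd1 was lost in 1 of 19 alternatives, the 4 libraries with Xist, with 1 WT library (adjusted p = 0.0965 from limma), where the log2 fold change was -0.26. Psmd2, the other scaffold of the base, had a log2 fold change of -0.069 and Psmd4, a ubiquitin receptor, one of 0.14 (adjusted p = 0.0849 from limma), and neither was called. Psmd4 was found at 1514, 1558 and 1605 in WT and 1704, 1756 and 1677 in Irf1-/- cells. It was called higher under 3 alternatives, quantile normalization, the replicate block and the libraries of replicates 1 and 2. In the last of these, sex and genotype cannot be told apart.

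In the lid, which holds the deubiquitinase Psmd14, 8 genes were tested and none was called. Psmd3, Psmd6, Psmd7, Psmd8, Psmd11, Psmd12, Psmd13 and Psmd14 had log2 fold changes from -0.18 for Psmd7 to 0.093 for Psmd8, with a median of -0.046. Psmd7, the partner of Psmd14, came closest to a call (adjusted p = 0.0583 from limma) with counts of 2479.7, 2461 and 2332 in WT and 2265, 2193 and 1979 in Irf1-/- cells. It was called lower by limma in 3 alternatives, without WT replicate 3 (adjusted p = 0.0344), with the replicate block (0.00580) and in the libraries of replicates 1 and 2 (0.0134). Psmd9 was called lower in the same 3 alternatives (adjusted p = 0.0376, 0.0376 and 0.0251 from limma). Without WT replicate 3 and in the libraries of replicates 1 and 2, sex and genotype cannot be told apart. In the libraries with Xist the log2 fold changes were -0.12 for Psmd7 and -0.044 for Psmd9, against -0.18 and -0.19 in all. The chaperones that assemble the base, Psmd5, Psmd9 and Psmd10, were among the least abundant members per kilobase, at 122.9, 169 and 185 in WT cells, and none was called.

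The remaining activators were not called. Psme3 encodes PA28γ, the nuclear form of the family, which is not a classical interferon target. It was the most abundant member in counts, at 4771, 4858 and 4227 in WT and 4327, 3946 and 3721 in Irf1-/- cells, with Irf1-/- replicate 1 above WT replicate 3. Its log2 fold change of -0.21 missed the threshold (adjusted p = 0.0556 from limma) and had a 95% interval of -0.36 to -0.052. It was called lower by limma in 4 of 19 alternatives. These were without WT replicate 3 (adjusted p = 0.00774), without Irf1-/- replicate 1 (0.0402), with the replicate block (0.00153) and in the libraries of replicates 1 and 2 (6.02e-05). In the first and the last of these, sex and genotype cannot be told apart. In the libraries with Xist the value of Psme3 was -0.083. Psme4, which encodes PA200, was found at 1265, 1141 and 1306 in WT and 1196, 1091 and 1412 in Irf1-/- cells and was not called (log2 fold change -0.011, standard error 0.0911, adjusted p = 0.951 from limma).

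The errors of the constitutive members were compared with those of the other genes. Over the 37 constitutive members the median standard error of the log2 fold change was 0.0590, over the inducible ones it was 0.0678 and over all genes tested 0.0997. The 95% intervals of the 33 constitutive members that were not called all lay between -0.38 and 0.30 on the log2 scale. The interval of Psmb9, the inducible gene with the smallest difference, ended at -0.39. Among all 37 constitutive members the interval that reached lowest was that of Psma1, at -0.41. Of the constitutive values, 27 of 37 lay below 0, against 50.6% of all genes tested.

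The same comparison was made for genes that act before, on or after the proteasome, from lists written with earlier results of these data known, so the counts are a description. Of 19 tested cofactors and chaperones outside the 42, 6 were called lower and none higher, against 12.4% lower and 11.4% higher over all genes tested, with a median log2 fold change of -0.080. These were Psmg4 (-0.36), a core assembly chaperone, Ube3c (-0.27), a ubiquitin ligase on the cap, Ecpas (-0.25), a cap adaptor, Usp14 (-0.23), a deubiquitinase on the cap, and the shuttle factors Ubqln4 (-0.21) and Rad23b (-0.17). Of the 50-base stretches of Usp14, 45.3% also occur in Thoc1, which overlaps it on the opposite strand. The other assembly chaperones Psmg1, Psmg2 and Psmg3 were not called, at 0.0021, 0.029 and -0.18. Some of these calls were lost when a single library was left out, in limma's fit again. This held for Psmg4 without WT replicates 1 and 2 or Irf1-/- replicates 2 and 3 (adjusted p from 0.0628 to 0.0875), for Rad23b without WT replicates 1 and 2 or Irf1-/- replicates 1 and 2 (adjusted p from 0.0850 to 0.140) and for Ubqln4 without WT replicates 2 and 3 or Irf1-/- replicates 2 and 3 (adjusted p from 0.0579 to 0.0963). It also held for Usp14 without WT replicates 2 and 3 or Irf1-/- replicate 2 (adjusted p from 0.0665 to 0.108) and for Ube3c without WT replicate 2 (adjusted p = 0.0541). In the libraries with Xist, with 1 WT library, all of these 5 calls were lost (adjusted p from 0.0875 to 0.366 from limma), at log2 fold changes from -0.34 for Psmg4 to -0.13 for Rad23b, while that of Ecpas held (log2 fold change -0.34, adjusted p = 0.0401 from limma). DESeq2 did not call Psmg4 and Rad23b, and without a trend all but Psmg4 and Ube3c lost their calls. Quantile normalization ended those of Usp14, Rad23b and Ubqln4 (adjusted p from 0.0802 to 0.105 from limma), the Ddx3y covariate those of Psmg4 (0.0991) and Rad23b (0.141), and testing without a minimum mean that of Rad23b (0.0606). Psma8 and Psmb11, core subunits of testis and thymic epithelium, reached at most 4.47 and 5.55 normalized counts and were not tested.

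NRF1, encoded by Nfe2l1, is the transcription factor that raises constitutive subunit genes when proteasome activity falls, after release by Ddi2. Nfe2l1 was called higher, at 1538, 1563 and 1842 in WT and 2003, 1836 and 2134 in Irf1-/- cells (log2 fold change 0.28, standard error 0.0798, adjusted p = 0.0302 from limma), with WT replicate 3 above Irf1-/- replicate 2. Ddi2, a protease, was called lower, at 923, 999 and 931 in WT and 805, 831 and 741 in Irf1-/- cells (log2 fold change -0.26, standard error 0.0656, adjusted p = 0.0151 from limma). The values of Ngly1 and Vcp, which serve the same route, were 0.028 and 0.0073 on the log2 scale and were not called. Nfe2l2, which encodes the related NRF2, stood at -0.23 and was called in 3 of 19 alternatives only, the replicate block, without Irf1-/- replicate 3 and the libraries of replicates 1 and 2. The call of Nfe2l1 was lost without WT replicate 1 (adjusted p = 0.122 from limma), WT replicate 2 (0.118), Irf1-/- replicate 1 (0.0913) or Irf1-/- replicate 3 (0.0654), and that of Ddi2 without WT replicate 2 (0.0764). Without a trend neither gene was called. In the libraries with Xist the log2 fold change of Nfe2l1 was 0.11 (adjusted p = 0.557 from limma) and with the Ddx3y covariate 0.12 (0.296). The call of Ddi2 was lost in both fits, at -0.23 (adjusted p = 0.208 from limma) and -0.22 (0.0863).

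Of 5 genes for ubiquitin and the ubiquitin-like FAT10, 3 were called lower and 1 higher, against 12.4% lower and 11.4% higher over all genes tested. The polyubiquitin gene Ubb was higher in Irf1-/- cells, at 0.24 on the log2 scale. Of its 50-base stretches, 55.4% also occur in other annotated genes, mostly Gm1821. Ubd, which encodes FAT10, a tag that sends proteins to the proteasome and responds to IFN-γ, was near the detection limit at 17.5, 26.4 and 9.84 in WT and 3.58, 8.32 and 4.47 in Irf1-/- cells and was called lower (log2 fold change -1.52, standard error 0.448, adjusted p = 0.0324 from limma). It passed the minimum mean only through its WT level, so its call does not support the count of this list. The FAT10-activating enzyme Uba6 and the FAT10-binding Nub1 were called lower as well, at -0.30 and -0.21. In limma's fits that left out a single library, calls were lost for Ubb without WT replicates 1 and 2 or Irf1-/- replicate 2 (adjusted p from 0.0511 to 0.0675) and for Ubd without WT replicates 1 and 2 or Irf1-/- replicates 1 and 3 (adjusted p from 0.0580 to 0.148). They were also lost for Uba6 without WT replicates 1 and 2 or Irf1-/- replicates 2 and 3 (adjusted p from 0.0503 to 0.0958) and for Nub1 without WT replicates 1, 2 and 3 or Irf1-/- replicates 1 and 2 (adjusted p from 0.0638 to 0.0970). All 4 calls were lost without a trend and in the libraries with Xist, where the log2 fold changes were 0.19 for Ubb, -0.29 for Uba6 and -0.28 for Nub1 (adjusted p from 0.109 to 0.238 from limma). The difference of Ubd was smaller there, at -0.81 (adjusted p = 0.525 from limma), and stood at -0.81 with the Ddx3y covariate (0.313) and at -0.82 with a pseudocount of 10 (0.0362). The Ddx3y covariate also ended the calls of Ubb (0.0592) and Uba6 (0.0618), and quantile normalization that of Nub1 (0.0872), by limma's adjusted p. DESeq2 did not call Ubd, Uba6 or Nub1.

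The last list held genes that handle peptides after the proteasome. Of 15 tested, 9 were called lower and none higher, against 12.4% lower and 11.4% higher over all genes tested, with a median log2 fold change of -0.25. The cytosolic peptidases Tpp2, Lap3, Blmh, Npepps, Thop1 and Nrd1 were not called, with values from -0.16 for Tpp2 to 0.10 for Nrd1. All 9 called genes act in peptide transport into the endoplasmic reticulum or in trimming, folding or loading there. Erap1, which trims peptides to length, was at 1514, 1538 and 1544 in WT and 423, 368 and 411 in Irf1-/- cells (log2 fold change -1.94, standard error 0.0671, adjusted p = 4.49e-08 from limma), and Tapbp (tapasin) at -1.83 on the log2 scale. The transporter subunit Tap2 had a log2 fold change of -0.77, Tap1 one of -0.30 and B2m one of -0.35. Canx lost its call without Irf1-/- replicate 2 (adjusted p = 0.0698 from limma), and no other gene of these 9 lost its call without a single library. In the libraries with Xist, with 1 WT library, the calls of Tap1 (log2 fold change -0.29, adjusted p = 0.0604 from limma) and Calr (log2 fold change -0.25, adjusted p = 0.0760 from limma) were lost, and without a trend those of Calr and Canx. Of the peptidases, Tpp2 was called in 4 of 19 alternatives, among them the replicate block and the Ddx3y covariate.

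**Figure D4:**
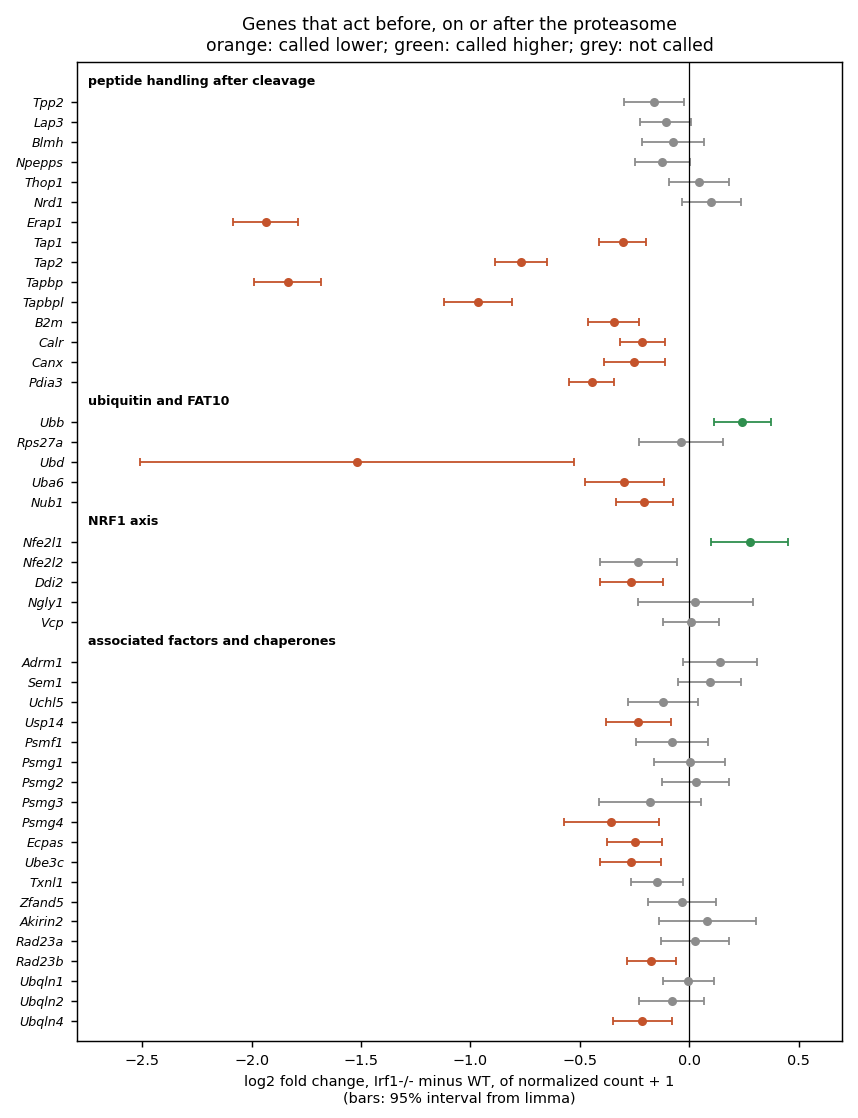
Log2 fold change between the genotypes, Irf1-/- minus WT (x axis, on the scale of the log2 of the normalized count plus 1) for genes that act before, on or after the proteasome (y axis), with 95% intervals from limma (n = 3 per genotype). Erap1 and Tapbp lie at -1.94 and -1.83, and all cytosolic peptidases, from Tpp2 to Nrd1, lie between -0.16 and 0.10.

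The genes next to the inducible subunits were described next, from the 3 nearest tested genes on each side in chromosome order. On chromosome 17, Psmb9, Tap1, Psmb8 and Tap2 lie in a row, and all 4 were called lower in Irf1-/- cells by limma, with log2 fold changes of -0.50, -0.30, -0.84 and -0.77. Distances between start sites use the 5′ ends of the GENCODE gene spans, which differ from the RefSeq starts of the windows shown above. The start sites of Psmb9 and Tap1 lie 0.211 kb apart on this measure, and Psmb9 differed more than Tap1. On either side of these genes, H2-DMa was called lower (-0.58) and H2-Ob higher (1.03). The mean normalized counts of H2-Ob were 22.3 in WT and 46.5 in Irf1-/- cells. The call of H2-DMa was lost without Irf1-/- replicate 1 and without a trend, and its value was -0.96 in the libraries with Xist. Around Psmb10 none of the 6 neighbours was called, with values from -0.27 for Lcat to 0.16 for Dus2.

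Between Psme1 and Psme2 on chromosome 14 lies Emc9, which was called higher (0.86, adjusted p = 0.0120 from limma, from 28.7 to 52.6 mean normalized counts), and which overlaps Psme1 on the opposite strand. Pck2 and Rec8 in the same stretch were called higher too, at 1.08 and 2.59 on the log2 scale, although Rec8, at mean normalized counts of 7.10 in WT and 44.0 in Irf1-/- cells, passed the minimum mean only through the Irf1-/- level, while Rnf31, whose start lies 0.595 kb from that of Psme2, was not called (0.17). Of the 20 neighbours that are not proteasome genes, 3 were called lower, 4 higher and 13 not, against 12.4% lower and 11.4% higher over all genes tested, so the number called lower is near that background, and Rec8 is among those called higher. In the libraries with Xist, with 1 WT library, the call of Emc9 was lost (log2 fold change 0.70, adjusted p = 0.155 from limma), as with the Ddx3y covariate in all 6 libraries (0.69, adjusted p = 0.0978 from limma), and Pck2 had a smaller value that was still called (log2 fold change 0.67, adjusted p = 0.00149 from limma).

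**Figure D5:**
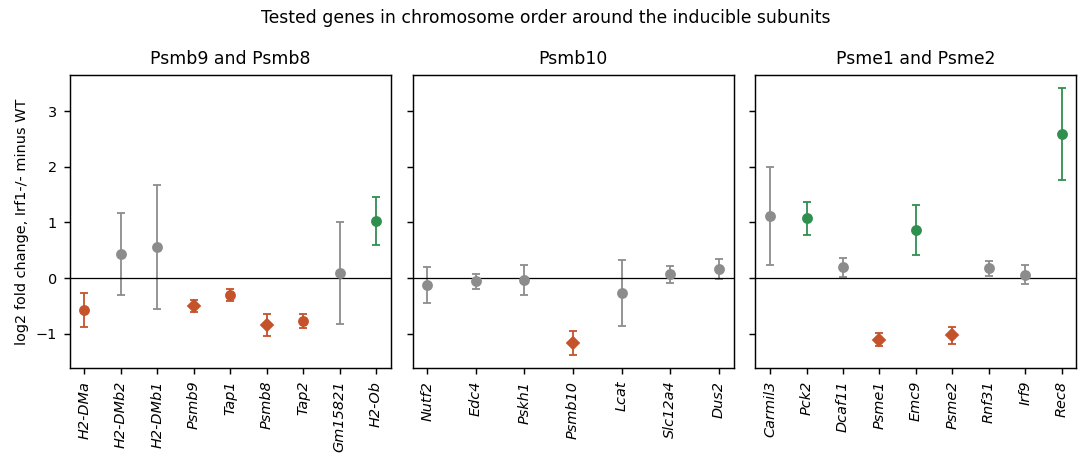
Log2 fold change (y axis, Irf1-/- against WT, with 95% intervals from limma) of the tested genes in chromosome order around the inducible proteasome genes (x axis, gene order and not distance), with inducible subunits as diamonds and other genes as circles. Orange marks a lower, green a higher and grey no call, and the 6 neighbours of Psmb10 lie between -0.27 and 0.16 while Psmb10 lies at -1.16.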

How the data were processed

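Single-end libraries of poly(A) RNA came from 3 WT and 3 Irf1-/- Th9 cultures. Per the labels and methods, the authors used STAR 2.4.0b for alignment to GRCm38 and featureCounts for counting with Ensembl 76, and the deposited signal is the count divided by a library size factor of DESeq2 1.12.3, called the normalized count. The library kit did not mark strand, and the counting options are not given in the sources used here. All values above 0 (100%) came back as whole reads within 0.001 reads, and 3 reads corresponded to a normalized count of 1.84 to 4.16. Precision is limited by 3 cultures per genotype, which the study calls independent samples without saying which mice they came from, so the p-values measure the spread between these cultures.

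Symbols, coordinates and principal transcripts came from GENCODE vM21 (GRCm38), in which 40340 of 41388 identifiers had a symbol. Paaf1 was not analysed here, and some further genes of the lists are not reported here. Genes with a mean of at least 10 entered limma 3.58.1 in R 4.3.3 (eBayes with a trend) on log2 values after a pseudocount of 1, with Benjamini-Hochberg adjustment over 11379 genes. Ratios within a culture were compared by an exact two-sided permutation test. Sharing between genes was counted in stretches of 50 bases, the read length in the methods, whereas the labels give 59 bases. Shared percentages and unshared lengths depend on this length. The fitting script was checked on simulated data. The alternatives were other pseudocounts (0.1, 10), other minimum means (none, 50), other scalings (quantile normalization, TMM factors), a fit with no trend, a replicate block, count models on the whole reads (edgeR 4.0.16, DESeq2 1.42.0), leaving out each library, a Ddx3y covariate, and the libraries with Xist (over 100), of replicates 1 and 2, and of replicate 3. The members and lists were chosen with earlier results of these data known. Genes are named if they belong to the 42 members, the lists, the markers or the 3 nearest tested genes on each side of an inducible gene, and Psme2b was added for its shared sequence.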

Additional observations from a re-analysis of the deposited data

How the results depend on the processing

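The 5 inducible subunits were called lower under all 19 alternatives with a test, and the 3 ratios of inducible to constitutive cutting subunits kept their sign under every alternative run for them, including the pair of replicate 3 alone, although a block or a rescaling of whole libraries cannot change that sign by construction. Leaving out 1 library at a time gave 5 inducible calls throughout, 2 to 6 constitutive subunits called lower and 0 called higher, 826 to 1472 genes of the whole table called lower and 799 to 1372 called higher, a median log2 fold change of -1.06 to -0.98 for the inducible and -0.076 to -0.041 for the constitutive subunits, and ratio differences of -1.0015 to -0.7387 for Psmb8 to Psmb5, -0.59 to -0.50 for Psmb9 to Psmb6 and -1.16 to -1.05 for Psmb10 to Psmb7. The number of constitutive subunits called lower, 4 in the report, was 2 with quantile normalization, 2 without a trend, 2 without WT replicate 2, 2 with the Ddx3y covariate, 1 in the libraries with Xist and 7 in the libraries of replicates 1 and 2. The number called higher, 0 in the report, was 1 with quantile normalization (Psmd4) and 3 in the libraries of replicates 1 and 2 (Psmb3, Psmd4 and Psmd8). In the libraries of replicates 1 and 2, sex and genotype cannot be told apart. The constitutive median was -0.0086 with quantile normalization and -0.12 in the pair of replicate 3, where no test was possible. Over all genes, 807 were called lower without a trend, and 392 were called lower and 392 higher in the libraries with Xist, which include 1 WT library. The causes were not tested.

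With a replicate block the inducible calls stayed at 5, 7 constitutive subunits were called lower and 1 higher (Psmd4), and 2116 genes of the whole table were called lower. The replicate numbers were not taken as pairs, because the deviations of same-numbered WT and Irf1-/- cultures from their group means correlated at 0.0922, 0.269 and 0.321, so that replicate 1 stayed under 0.1, although each culture correlated best with its own number. With the replicate block the 3 ratio differences are the same by construction (-0.87, -0.54 and -1.10), and the exact two-sided sign-flip permutation p was 0.25 for each, the smallest that 3 pairs allow.

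Of the 33 members not called, 17 changed sign under at least 1 alternative, and none of the 9 called members did. With 3 cultures per genotype the ratio tests could not pass 0.05. Members with copies or overlapping genes, above all Psmb5, Psmb3, Psma5 and Psme2, depend on how reads that match several places were counted. All cultures received IFN-γ, so induction itself was not measured.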
